A study of Mus musculus with 6 samples.

Results

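Actin assembly and myosin genes are described here as 45 genes, named one by one, that build, turn over or pull on the actin cytoskeleton or link it to the membrane. All 45 were found once each among the 29097 genes listed in the deposited table, and all 45 passed the filter on low values, which left 10440 genes for testing. The members were chosen by function and not by measured values, although results of these data were already known when they were chosen. The libraries came from male C57BL/6 wild type mice, 8 weeks old. In the group with ligature-induced periodontitis (LIP), silk ligatures had been tied around the second molars of both jaws on both sides for 14 d. Control mice (Ctrl) were unligated, and both groups were otherwise of the same genotype. Neutrophils of the peripheral blood were sorted as CD45+CD11b+Ly6G+ cells after red cell lysis, each library pooled the cells of 5 mice, and there were 3 libraries per group, prepared by Smart-seq2, a full-length cDNA method without molecular identifiers. The comparison asks whether transcripts of circulating neutrophils differ after periodontitis has been induced.

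Actin exists as monomers (G-actin) and as filaments (F-actin), and a crawling neutrophil continually assembles filaments behind its leading membrane and takes them apart farther back. The Arp2/3 complex starts branched filaments once it is switched on by proteins of the WASP and WAVE families, formins start and lengthen unbranched filaments, Ena/VASP proteins keep filament ends growing, and capping proteins stop them. Profilin and the thymosin betas hold the monomer pool, while cofilin, its helper Wdr1, gelsolin and the coronins sever or turn over old filaments. Myosins pull on filaments, and ezrin, moesin, talin and kindlin-3 tie them to the membrane and to integrins. Loss of some of these genes, such as those for WASP, kindlin-3 or coronin 1A, is known for defects of leukocyte migration, adhesion or survival.

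Library totals lay between 52186555 and 57262379 counts. Values of 1 gene across libraries are given below as CPM (counts scaled to a common library total) after scaling by the trimmed mean of M values (TMM), a method that assumes that most genes do not change. Levels of different genes are compared only as FPKM (fragments scaled by gene length and library total), as deposited. The groups differed in what else the sorted cells held. Haemoglobin genes took 14.8% ± 0.237 (SD, n = 3) of all counts in Ctrl and 1.58% ± 0.0318 (SD, n = 3) in LIP. The summed FPKM of 13 B cell markers, led by *Cd74*, was 11056 to 12030 in Ctrl and 1827 to 1840 in LIP, and that of 16 T cell markers, led by *Trbc2*, was 533 to 593 in Ctrl and 87.3 to 107 in LIP. All 13, all 16 and all 9 tested erythroid markers were lower in LIP (median log2 fold changes −2.53, −2.37 and −3.01), and the 11 erythroid markers found summed to 180807 to 187040 FPKM in Ctrl and 19507 to 20218 in LIP. All 12 platelet markers, led by *Ppbp*, were higher, and summed to 902 to 1142 FPKM in Ctrl and 1879 to 2212 in LIP. The 12 monocyte markers, led by *Ly6c2*, were likewise all higher, at 205 to 227 and 354 to 387 FPKM. All 17 mature neutrophil markers, led by *S100a9*, were higher in LIP (median 1.84), at 16020 to 19302 FPKM in Ctrl and 54554 to 59585 in LIP. Of 8 tested immature neutrophil markers 4 were higher, at 1820 to 2136 and 2486 to 2668 FPKM. Summed natural killer cell markers stood at 523 to 611 and 452 to 496 FPKM, with 4 of 10 higher. All sums are in deposited FPKM and all calls are on the TMM scale, so sum and calls can differ in direction, as here. Eosinophil and basophil markers stood at 11.8 to 16.1 and 14.0 to 20.7 FPKM, with 1 of 6 higher, and dendritic cell markers at 6.47 to 8.28 and 7.78 to 12.6, where the 1 tested was higher. None of the markers found was at 0 in every library. Of the erythroid markers 11 of 12 were found, and of the eosinophil and basophil markers 8 of 9. The part of this shift in the member results was not tested, and in these bulk samples fewer cells of a type and less RNA per cell cannot be told apart.

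Actin assembly and myosin genes were among the most abundant transcripts of these libraries. Of the 100 genes with the highest mean FPKM 6 were members, as were 24 of the highest 500. *Tmsb4x*, whose product thymosin beta 4 sequesters actin monomers, ranked 9 among all tested genes at a mean of 7277 FPKM, and *Actb*, encoding beta actin, ranked 11 at 4734 FPKM. *Pfn1* (profilin 1) at 747 FPKM, *Actg1* (gamma actin) at 689, *Coro1a* at 556 and *Tmsb10* (thymosin beta 10) at 530.5 FPKM followed. At the other end stood *Myo9b*, a class IX myosin, at 6.11 FPKM. All members together took 3.87% ± 0.156 (SD, n = 3) of the counts in Ctrl and 5.76% ± 0.0985 (SD, n = 3) in LIP. With haemoglobin reads left out of the total, these shares were 4.55% ± 0.193 and 5.85% ± 0.0998.

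On the TMM scale 38 of the 45 members (84.4%) were higher in LIP by edgeR's quasi-likelihood test at a Benjamini-Hochberg adjusted p under 0.05, against 26.5% of all 10440 genes tested. The test called 3 members (6.67%) lower, against 27.2% of all genes, and left 4 without a call. In either direction 41 members were called (91.1%), against 53.6% of all genes. The median log2 fold change of the members was 0.85, and that of all genes was −0.09. Scaled by library totals, which include the haemoglobin counts, 34 members were called higher and 4 lower, with a median of 0.53 against −0.42 for all genes, of which 18.4% were then higher and 39.7% lower. All members had a mean of at least 6.11 FPKM, whereas genes were tested from 1 FPKM. With TMM and a filter of 5 FPKM, 37 members were called higher and 4 lower, with a median of 0.69. Of the 5328 genes then tested 33.2% were higher and 35.1% lower, with a median of −0.04. In CPM the LIP libraries all lay above the Ctrl libraries for 40 members and all below for 4, and the groups overlapped for 1, whereas 30.3% of all genes lay wholly above and 33.1% wholly below. In deposited FPKM, a comparison chosen after the data were seen, 37 members lay wholly above, 5 wholly below and 3 overlapped, against 21.6% of all genes wholly above and 44.4% wholly below.

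These directions hold relative to the average gene. When the libraries were instead scaled on 17 mature neutrophil markers, whose own values rose by a median of 1.84 on the TMM scale, 0 of 45 members were higher, also at an unadjusted p under 0.05, and 44 were called lower in LIP by edgeR, with a median of −0.98, and the exception, *Myo1f*, had −0.25 (adjusted p = 0.128). All tested genes then had a median of −1.93, with 0.536% called higher and 89% called lower, so the count of members called lower was near that of genes in general. This scaling lowers every gene by nearly the same amount. The largest rise of a member on the TMM scale, 1.57 for *Myo1f*, lay below the markers' median of 1.84. The count of 0 was therefore set by the choice of markers and is no separate result. Between 39 and 42 of the 45 members lay above the median of all genes in every setting tried, 41 of them on both the TMM and the neutrophil scale. As a change of scale moves all genes nearly alike, this agreement between scales was largely fixed in advance. The members thus moved up against the average gene and down against the mature neutrophil markers, and every direction below is given on the TMM scale with that reversal in force for members that rose.

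**Figure D1:**
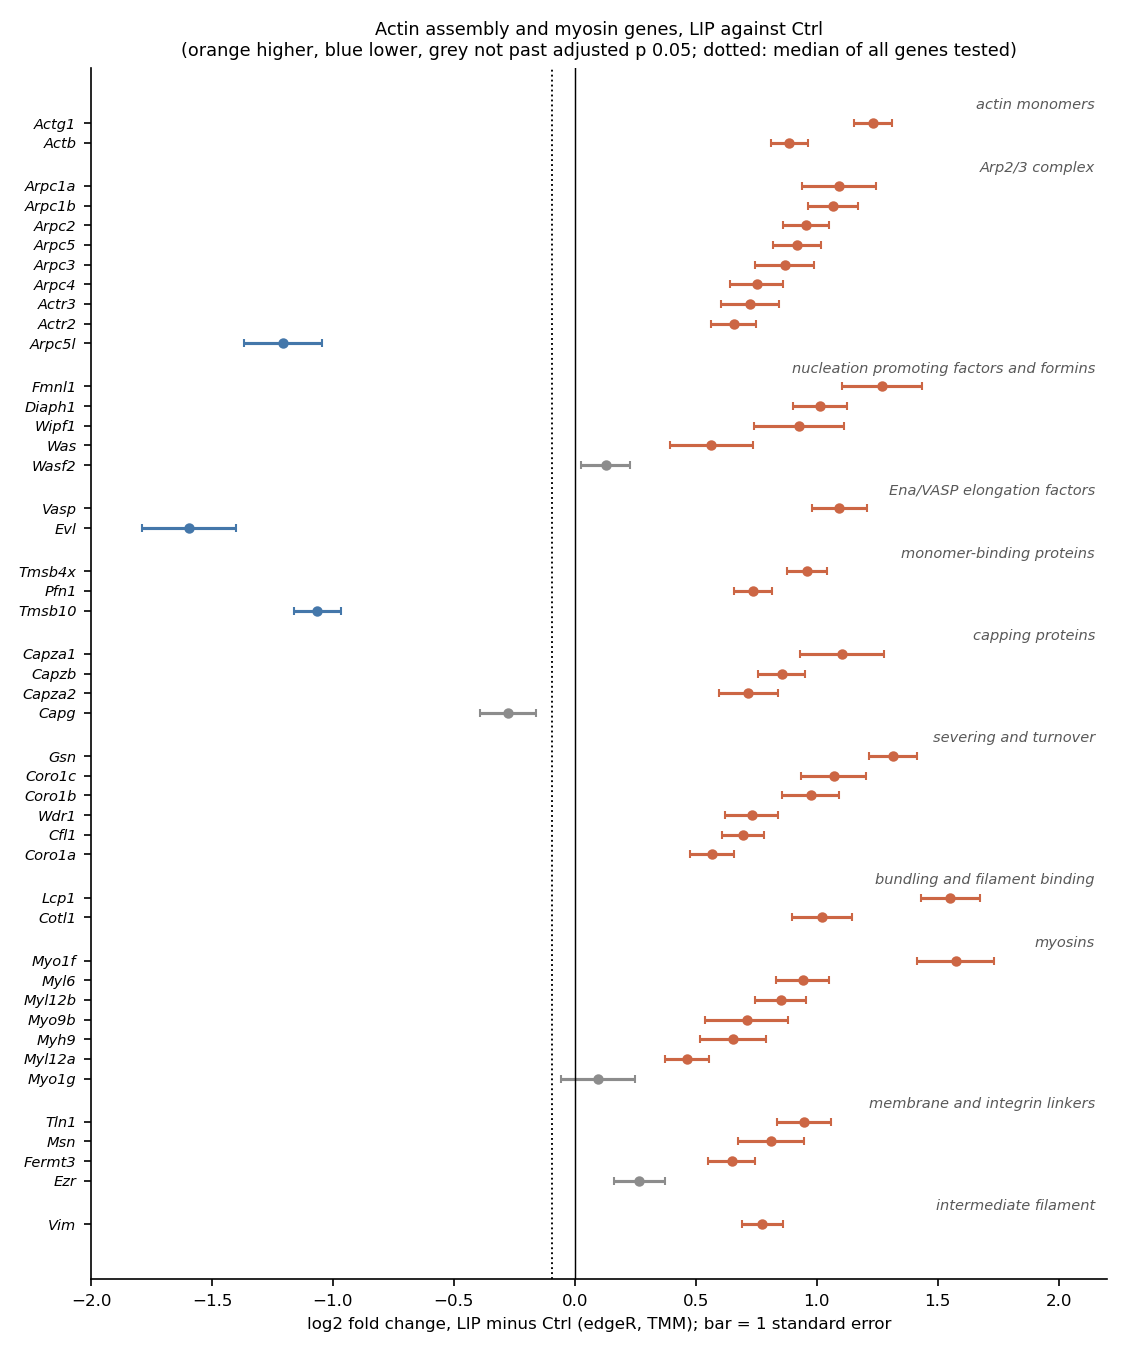
Log2 fold change of each of the 45 members in LIP against Ctrl on the TMM scale (horizontal axis), by role (rows); points are genes, bars are standard errors from edgeR, and the vertical lines mark 0 and the median of all genes (−0.09). The 3 members called lower, *Evl*, *Arpc5l* and *Tmsb10*, stand apart from the 38 called higher, whose direction reverses when libraries are scaled on mature neutrophil markers.

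**Figure D2:**
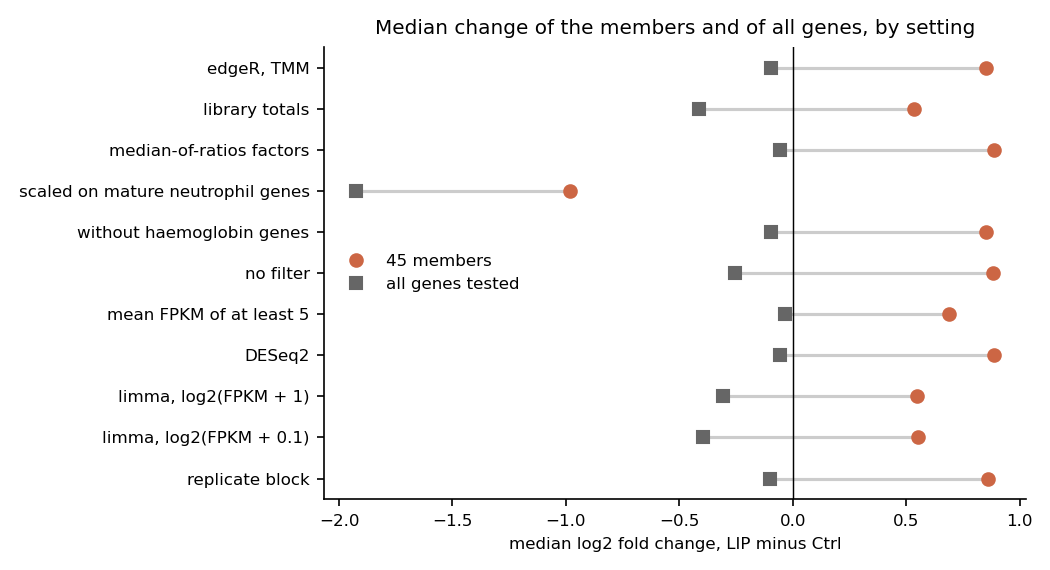
Median log2 fold change, LIP minus Ctrl (horizontal axis), of the 45 members (circles) and of all genes tested (squares) under each processing setting (rows). The members' median lay above that of all genes in every row. Scaling on mature neutrophil genes moved it from 0.85 to −0.98 and that of all genes, by nearly as much, from −0.09 to −1.93.

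Both actin genes of non-muscle cells rose on the TMM scale (and were lower on the neutrophil scale, at −0.95 for *Actb* and −0.60 for *Actg1*). *Actb* measured 9508, 10904 and 9177 CPM in Ctrl and 18711, 16936 and 19086 CPM in LIP, a log2 fold change of 0.89 (SE 0.0758, adjusted p = 5.13e-06, edgeR). *Actg1*, on chromosome 11, measured 1159, 1326 and 1194 CPM in Ctrl and 2893, 2797 and 2949.5 CPM in LIP, a log2 fold change of 1.23 (SE 0.0775, adjusted p = 7.51e-07). All LIP libraries lay above all Ctrl libraries for both genes. Because both values come from the same library, the ratio of 1 gene to the other does not depend on how libraries are scaled. The FPKM ratio of *Actb* to *Actg1* was 8.14, 8.16 and 7.63 in Ctrl and 6.42, 6.01 and 6.42 in LIP, so that beta actin remained the main isoform in every library while gamma actin made up more of the total in LIP. The difference was −0.34 on the log2 scale and the groups did not overlap (exact permutation test, two-sided p = 0.1, the smallest p that 3 against 3 libraries allow). The coding sequences of both genes have 88.65% of their bases in common, so reads could be split between them, and how the counting handled such reads is not given in the sources used here.

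The promoter of *Actg1* is shown because actin genes are textbook targets of serum response factor, which binds the CArG box, and of Sp1-type factors, which bind GC boxes. It is given 5′ to 3′ over the 250 bases before the RefSeq start, at chr11:120348496-120348745 on the minus strand of GRCm38.p6, with capitals for a CArG box (named by its motif, CC, 6 A or T, GG) and for GC boxes (GGGCGG on either strand).
Actg1 promoter: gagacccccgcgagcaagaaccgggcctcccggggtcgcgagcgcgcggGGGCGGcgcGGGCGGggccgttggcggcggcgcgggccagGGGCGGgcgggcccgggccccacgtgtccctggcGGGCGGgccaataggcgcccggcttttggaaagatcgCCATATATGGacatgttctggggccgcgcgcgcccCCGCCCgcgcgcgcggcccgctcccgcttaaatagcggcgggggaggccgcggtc
Tmsb10 promoter: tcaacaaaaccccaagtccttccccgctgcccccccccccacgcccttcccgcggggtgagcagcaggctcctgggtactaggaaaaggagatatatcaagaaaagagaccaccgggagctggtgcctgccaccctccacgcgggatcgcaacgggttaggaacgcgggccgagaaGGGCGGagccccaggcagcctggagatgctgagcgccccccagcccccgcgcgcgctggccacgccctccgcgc
The CArG box of *Actg1* begins 90 bases before the start, with 5 GC boxes in the window. The promoter of *Tmsb10*, a member that fell on the TMM scale, is printed as well (chr6:72958484-72958733, minus strand) and holds 1 GC box and no CArG box. That of *Tmsb4x*, which rose, likewise holds 1 GC box and no CArG box, and that of *Evl*, which fell, holds 3 GC boxes. Of the 45 members 40 had a promoter in the RefSeq table, *Actb*, *Coro1b*, *Cotl1*, *Arpc5l* and *Diaph1* being without one. A CArG box was found in 2 of the 40 (5.0%; *Actg1* and *Arpc4*), against 1.47% of all 32851 promoters, and a GC box in 26 of the 40 (65.0%), against 32.7%. The 40 are 1 promoter per gene, while the 32851 are all entries and are not limited to tested genes. Over all 50 starts of the members the shares were 6.0% and 62.0%. These matches describe the letters only.

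Of the 9 genes of the Arp2/3 complex, which nucleates branched filaments, 8 rose on the TMM scale with log2 fold changes between 0.66 and 1.09, and all 9 were lower on the neutrophil scale. The summed FPKM of the 9 was 1134 ± 62.3 (SD, n = 3) in Ctrl and 1704 ± 63.5 in LIP. *Arpc1b*, the leukocyte-enriched form of the p40 subunit, measured 915, 1189 and 996 CPM in Ctrl and 2088, 2308 and 2107 CPM in LIP (1.07, SE 0.103, adjusted p = 1.2e-05). Its paralogue *Arpc1a* rose about as much (1.09, SE 0.154, adjusted p = 0.000189), and the ratio of *Arpc1b* to *Arpc1a* ranged from 8.01 to 9.30 in Ctrl and from 7.33 to 9.91 in LIP (exact permutation p = 0.9). The core subunits *Actr2* and *Actr3*, which mimic an actin dimer, rose by 0.66 and 0.73, with a ratio that also overlapped between groups (exact permutation p = 0.8).

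The p16 subunit of the complex exists in alternative forms, *Arpc5* and *Arpc5l*, and these moved in opposite directions on the TMM scale, while both were lower on the neutrophil scale (−0.92 and −3.04). *Arpc5* (chromosome 1) had 583, 695 and 619 CPM in Ctrl and 1189, 1304 and 1091 CPM in LIP (0.92, SE 0.0998, adjusted p = 2.93e-05). *Arpc5l* (chromosome 2) had 99.7, 128 and 89.3 CPM in Ctrl and 49.2, 48.4 and 39.7 CPM in LIP (−1.20, SE 0.161, adjusted p = 0.000126). In FPKM there was 11.6, 10.8 and 13.7 times as much *Arpc5* as *Arpc5l* in Ctrl, and 47.8, 53.3 and 54.4 times as much in LIP. The log2 ratio thus differed by 2.11 between groups that did not overlap (exact permutation p = 0.1, the smallest possible). *Arpc5l* shares 277 bases with *Rpl35*, a ribosomal protein gene on the opposite strand that fell by 1.70 on the log2 scale (adjusted p = 1.11e-05), and whether the counting used strand is not given in the sources used here.

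Among activators of the complex and formins, 4 of 5 rose on the TMM scale and were lower on the neutrophil scale. *Fmnl1*, a leukocyte formin, measured 71.2, 49.0 and 73.2 CPM in Ctrl and 142, 149 and 176 CPM in LIP (1.27, SE 0.167, adjusted p = 0.000112). *Diaph1*, the formin mDia1, rose by 1.01, and the ratio of *Diaph1* to *Fmnl1* overlapped between groups (exact permutation p = 0.2). *Wipf1*, which stabilises WASP, rose by 0.93 (SE 0.186, adjusted p = 0.00191). *Was*, encoding WASP itself, had 27.8, 23.5 and 26.5 CPM in Ctrl and 44.1, 36.2 and 34.8 CPM in LIP and rose by 0.56 (SE 0.172, adjusted p = 0.0180), a call that was lost without LIP replicate 1 (adjusted p = 0.0687), with library totals (0.24, adjusted p = 0.245), with a filter of 5 FPKM (0.40, adjusted p = 0.0596) and with limma on log2(FPKM + 1) (0.23, adjusted p = 0.198). *Wasf2*, the WAVE2 gene, had 154, 166 and 158 CPM in Ctrl and 169.7, 171 and 183 CPM in LIP, and its log2 fold change of 0.13 did not pass the test (SE 0.101, adjusted p = 0.304). The FPKM ratio of *Was* to *Wasf2* was 0.372 to 0.473 in Ctrl and 0.501 to 0.683 in LIP, without overlap (exact permutation p = 0.1).

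The Ena/VASP genes gave the widest split of any pair among the 15 compared. *Vasp* (chromosome 7) measured 79.3, 78.0 and 71.2 CPM in Ctrl and 171, 166 and 151 CPM in LIP, a rise of 1.09 (SE 0.113, adjusted p = 2.1e-05) that became a fall on the neutrophil scale. *Evl* (chromosome 12), the other family member in this set, had 40.8, 35.1 and 38.4 CPM in Ctrl and 14.4, 10.6 and 12.7 CPM in LIP, a change of −1.60 (SE 0.193, adjusted p = 6.31e-05) and the lowest log2 fold change of the 45. Both products extend filaments at the leading edge. There was 2.18, 2.50 and 2.09 times as much *Vasp* as *Evl* in Ctrl and 13.4, 17.6 and 13.3 times as much in LIP, in FPKM. The log2 ratio differed by 2.70 (exact permutation p = 0.1), and no LIP library came near a Ctrl library. The mix of cells also differed between groups, and its part in this ratio was not tested.

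The monomer-binding genes held the largest transcript pools, and their thymosins parted on the TMM scale, where *Tmsb4x* rose and *Tmsb10* fell, while both were lower on the neutrophil scale. *Tmsb4x* (chromosome X) had 6727, 8468 and 7390.0 CPM in Ctrl and 14511, 15225 and 14179.8 CPM in LIP (0.96, SE 0.0811, adjusted p = 4.79e-06). *Tmsb10* had 852, 1028 and 963 CPM in Ctrl and 479, 448 and 433 CPM in LIP (−1.06, SE 0.0964, adjusted p = 8.02e-06). *Pfn1*, which delivers ATP-actin to growing ends, had 1394, 1616 and 1446 CPM in Ctrl and 2512, 2439 and 2472 CPM in LIP (0.74, SE 0.0778, adjusted p = 2.38e-05). The FPKM ratio of *Tmsb4x* to *Tmsb10* was 7.35, 7.67 and 7.14 in Ctrl and 28.2, 31.6 and 30.5 in LIP, a difference of 2.03 on the log2 scale without overlap (exact permutation p = 0.1). *Tmsb4x* was the more abundant of the pair in every library.

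The coding sequences of the thymosins are shown because the ratio rests on telling these short genes apart. They come from GENCODE M21 on GRCm38 (*Tmsb4x* gene, chromosome X, 167207093 to 167209315, minus strand; *Tmsb10* gene, chromosome 6, 72957347 to 72958488, minus strand), and capitals mark bases that differ.
Tmsb4x coding sequence: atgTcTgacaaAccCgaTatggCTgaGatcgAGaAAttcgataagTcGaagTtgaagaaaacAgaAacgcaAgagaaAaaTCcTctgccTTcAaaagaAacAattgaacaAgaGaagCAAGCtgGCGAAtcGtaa
Tmsb10 coding sequence: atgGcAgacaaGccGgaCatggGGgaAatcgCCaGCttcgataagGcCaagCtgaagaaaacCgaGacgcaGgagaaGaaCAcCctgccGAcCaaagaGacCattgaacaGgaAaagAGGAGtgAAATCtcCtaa
Each has 135 bases, of which 95 are identical (70.37%) and 40 differ, with 0 gaps, and the differences are spread along the whole length. The gene lengths implied by counts and FPKM are 1.48 kb for *Tmsb4x* and 1.38 kb for *Tmsb10*. Most of that sequence lies outside the coding part and was not compared, so this identity does not show whether reads can be told apart.

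**Figure D3:**
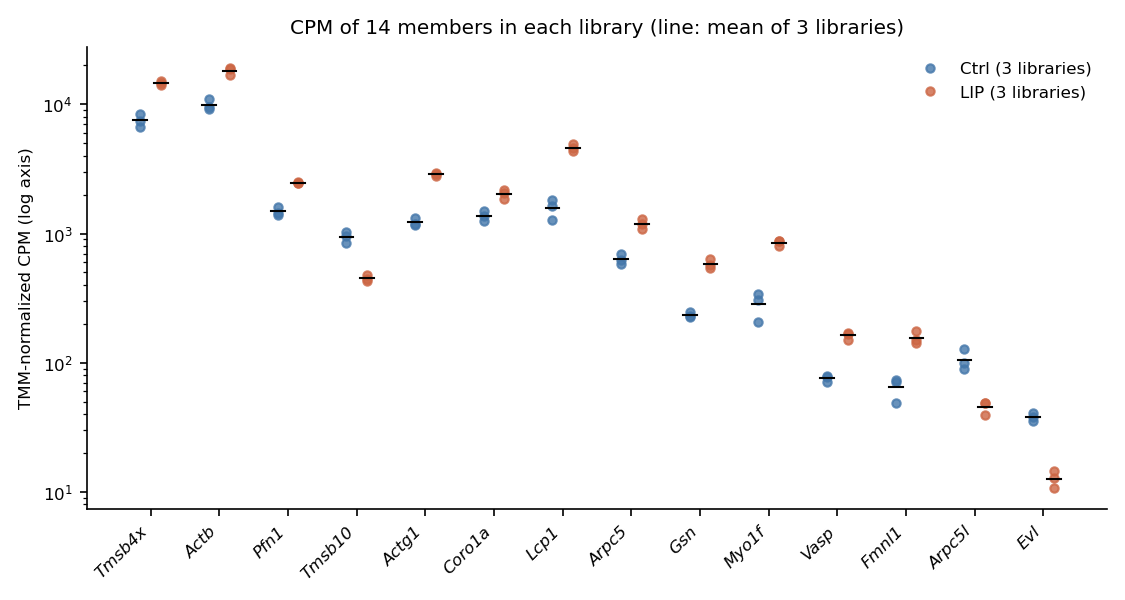
TMM-normalized CPM (vertical log axis) of 14 members in each of the 3 Ctrl and 3 LIP libraries; each point is 1 library and each line a group mean. *Tmsb10*, *Arpc5l* and *Evl* lie lower in every LIP library than in every Ctrl library, and *Tmsb4x*, *Arpc5* and *Vasp* lie higher, a direction that reverses when libraries are scaled on mature neutrophil markers.

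Of the 4 capping genes 3 rose on the TMM scale, *Capza1* by 1.11, *Capzb* by 0.85 and *Capza2* by 0.72, and all 4 were lower on the neutrophil scale. The first of these varied most among Ctrl libraries, with 301, 175 and 253 CPM against 494, 576 and 497 CPM in LIP (SE 0.173, adjusted p = 0.000371). *Capza2*, the other alpha subunit, had 251, 223 and 248 CPM in Ctrl and 379, 463 and 345 CPM in LIP (SE 0.122, adjusted p = 0.000675). *Capg*, a gelsolin relative that caps but does not sever, had 178, 219.9 and 186 CPM in Ctrl and 161, 168 and 152 CPM in LIP. Its groups did not overlap, but −0.28 did not pass the test (SE 0.115, adjusted p = 0.0636). It was called lower with library totals (−0.60, adjusted p = 0.00120), with a filter of 5 FPKM (−0.44, adjusted p = 0.00474) and with limma on log2(FPKM + 1) (−0.57, adjusted p = 0.00702).

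Among genes of severing and turnover 6 of 6 rose on the TMM scale, and all 6 were lower on the neutrophil scale. *Gsn*, encoding gelsolin, which both severs and caps, led them with 231, 247 and 224 CPM in Ctrl and 543, 573 and 630.3 CPM in LIP (1.32, SE 0.0979, adjusted p = 2.08e-06). The FPKM ratio of *Capg* to *Gsn* was near parity in Ctrl, at 0.962, 1.11 and 1.03, and 0.371, 0.365 and 0.301 in LIP, a difference of −1.59 on the log2 scale (exact permutation p = 0.1). *Cfl1* (cofilin 1), the main severing protein of non-muscle cells, rose by 0.69 (SE 0.0861, adjusted p = 7.47e-05), and *Wdr1*, which speeds cofilin's disassembly of filaments, by 0.73 (SE 0.110, adjusted p = 0.000291).

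The coronins, which guide Arp2/3 and cofilin to filaments, all rose on the TMM scale but to different extents, and all 3 were lower on the neutrophil scale. *Coro1a*, the blood-cell form, had 1246, 1484 and 1367 CPM in Ctrl and 1856, 2042 and 2176 CPM in LIP (0.57, SE 0.0914, adjusted p = 0.000452), a call that was lost with limma on log2(FPKM + 1) (0.26, adjusted p = 0.128). *Coro1b*, a more widely expressed form, had 199.5, 201 and 174 CPM in Ctrl and 326, 394 and 409 CPM in LIP (0.97, SE 0.118), and *Coro1c*, another, had 108, 80.2 and 102 CPM in Ctrl and 202, 219 and 190.0 CPM in LIP (1.07, SE 0.134). LIP libraries lay above Ctrl libraries for each of the coronins. The log2 ratio of *Coro1a* was lower in LIP against *Coro1b* (difference −0.40) and against *Coro1c* (difference −0.51), each without overlap (exact permutation p = 0.1). The *Coro1a* to *Coro1c* ratio was 39.9, 64.3 and 46.4 in Ctrl and 31.9, 32.5 and 39.8 in LIP, so these groups nearly touched. *Coro1b* shares 432 bases on its own strand with *Ptprcap*, a lymphocyte gene with a log2 fold change of −2.23.

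Both filament-binding genes rose on the TMM scale and were lower on the neutrophil scale. *Lcp1* (chromosome 14), which encodes L-plastin, the leukocyte bundling protein, had 1639.9, 1263 and 1813 CPM in Ctrl and 4341, 4890.4 and 4605 CPM in LIP. Its log2 fold change of 1.55 (SE 0.120, adjusted p = 2.66e-06) was second to that of *Myo1f*. *Cotl1*, encoding coactosin-like 1, rose by 1.02 (SE 0.124, adjusted p = 6.25e-05).

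Of the 7 myosin genes 6 rose on the TMM scale and 6 were called lower on the neutrophil scale. The summed FPKM of the 7 was 450.1 ± 15.1 (SD, n = 3) in Ctrl and 682 ± 12.0 in LIP. *Myo1f* (chromosome 17), a class I myosin that tethers membranes to actin and is known for a role in neutrophil motility, had the highest log2 fold change of all members, with 341, 208 and 305 CPM in Ctrl and 870.0, 876 and 796 CPM in LIP (1.57, SE 0.160, adjusted p = 1.8e-05). *Myo1g*, a class I myosin of blood cells, had 137, 98.3 and 136 CPM in Ctrl and 135, 115 and 147 CPM in LIP, and was the only member whose groups overlapped in CPM (0.09, SE 0.154, adjusted p = 0.622). The FPKM ratio of *Myo1f* to *Myo1g* was 3.47, 2.96 and 3.15 in Ctrl and 9.04, 10.7 and 7.58 in LIP, a difference of 1.50 on the log2 scale (exact permutation p = 0.1).

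The parts of non-muscle myosin II, the contractile motor at the rear of a crawling cell, rose together on the TMM scale and were lower together on the neutrophil scale. *Myh9*, its heavy chain, measured 75.6, 91.9 and 97.0 CPM in Ctrl and 144, 121 and 151 CPM in LIP (0.66, SE 0.137, adjusted p = 0.00242). The essential light chain *Myl6* rose by 0.94 (SE 0.111), and the regulatory light chain genes rose with it. *Myl12a* had 269, 299.5 and 286 CPM in Ctrl and 393, 403 and 383 CPM in LIP (0.46, SE 0.0924), and *Myl12b* had 362, 452 and 361 CPM in Ctrl and 694, 715 and 712 CPM in LIP (0.85, SE 0.106). The *Myl12a* to *Myl12b* ratio was 0.546 to 0.653 in Ctrl and 0.443 to 0.467 in LIP. This pair has 96.53% of its coding bases in common, and both genes overlap the model *Gm49909*, to which 0, 0 and 19 counts were assigned in Ctrl and 0, 1335 and 1992 in LIP, so the split of reads between them is uncertain. *Myo9b* rose by 0.71 (SE 0.171, adjusted p = 0.00546). With library totals the calls of *Myh9* (0.34, adjusted p = 0.0547), *Myl12a* (0.14, adjusted p = 0.177) and *Myo9b* (0.39, adjusted p = 0.0830) were lost, as they were with limma on log2(FPKM + 1) (0.31, 0.16 and 0.35).

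Among linkers of actin to the membrane and to integrins 3 of 4 rose on the TMM scale, and all 4 were lower on the neutrophil scale. *Msn* (moesin) measured 872, 586 and 847 CPM in Ctrl and 1279, 1406 and 1356 CPM in LIP (0.81, SE 0.136, adjusted p = 0.000614). Its relative *Ezr* (ezrin) measured 479, 376 and 466 CPM in Ctrl and 524, 525 and 542 CPM in LIP, and 0.27 did not pass the test (SE 0.106, adjusted p = 0.0551), although it did without Ctrl replicate 1 (adjusted p = 0.0324) or Ctrl replicate 2 (0.0498), with DESeq2 (0.31, adjusted p = 0.0145) and with its size factors in edgeR (0.31, adjusted p = 0.0280). The FPKM ratio of *Msn* to *Ezr* was 0.947, 0.810 and 0.945 in Ctrl and 1.27, 1.39 and 1.30 in LIP, so that ezrin transcripts were the more abundant in Ctrl and moesin transcripts in LIP, in every library (difference 0.56 on the log2 scale, exact permutation p = 0.1). *Tln1* (talin 1) and *Fermt3* (kindlin-3), which activate integrins from inside the cell, rose by 0.95 (SE 0.111) and 0.65 (SE 0.0959). *Vim*, the intermediate filament gene of leukocytes and fibroblasts, had 347, 365 and 336 CPM in Ctrl and 597, 599.8 and 597 CPM in LIP (0.78, SE 0.0853, adjusted p = 3.18e-05), and was lower on the neutrophil scale as well.

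Over the 15 pairs of related or partner genes, 12 had ratios that did not overlap between groups, 7 higher and 5 lower in LIP. Of all single genes 63.4% did not overlap between groups in CPM, and no share over other pairs was computed, so the count of 12 is a description only. The widest were *Vasp* to *Evl*, *Arpc5* to *Arpc5l* and *Tmsb4x* to *Tmsb10*, each of which sets a member that rose against 1 of the 3 that fell. In LIP, B and T cell markers were lower and platelet, monocyte and mature neutrophil markers higher. The part of this mix of cells in the ratios was not tested. The *Capza1* to *Capza2* ratio also differed, at 1.22 to 1.87 in Ctrl and 1.94 to 2.25 in LIP. None of these ratios can pass a threshold of 0.05 with 3 libraries per group, where 0.1 is the smallest two-sided p, and the Benjamini-Hochberg adjusted value over the 15 pairs was 0.125 for each of the 12.

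**Figure D4:**
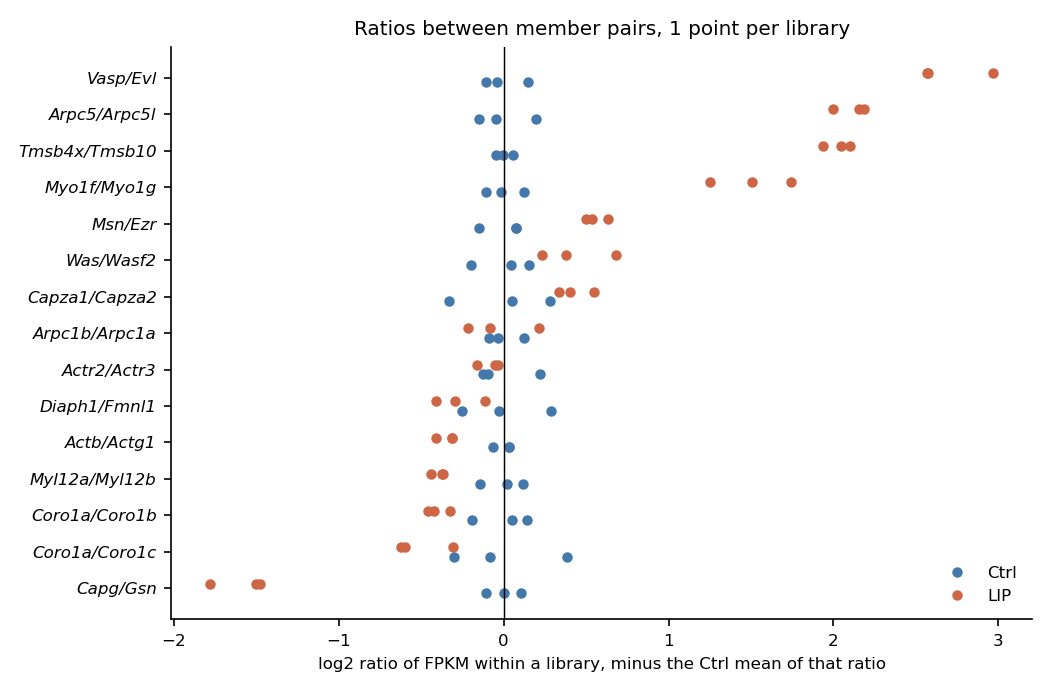
Log2 FPKM ratio of the first to the second gene of each of the 15 member pairs, minus the Ctrl mean of that ratio (horizontal axis), in the 3 Ctrl and 3 LIP libraries; each point is 1 library. The ratios do not depend on the scaling between libraries, but they can depend on the mix of cells, whose part was not tested. Of the pairs, 12 do not overlap between groups, and *Vasp* to *Evl* differs most, by 2.70.

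The genes listed beside the members as regulators and further actin-binding proteins moved in the same direction on the whole on the TMM scale, and on the neutrophil scale edgeR called 0 of them higher, also at an unadjusted p under 0.05. Of 127 such genes 124 were listed and 105 tested. On the TMM scale 63 of these were called higher and 10 lower in LIP, with a median of 0.59. Of all 10440 genes tested 26.5% were higher and 27.2% lower, with a median of −0.09. These shares are also the background for the lists below. On the neutrophil scale 90 of the genes listed were called lower, while over all genes 0.536% were called higher and 89% lower.

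Of 16 tested kinases and phosphatases of actin and myosin 9 rose on the TMM scale, among them *Pip5k1b* (1.84), *Pak1* (1.46), the Rac-activated kinase, and *Mylk* (1.38), which phosphorylates the regulatory light chain of myosin II. *Pip5k1b* overlaps *Fam122a*, which rose too (1.27). WAVE and WASP partners had 9 higher and 1 lower of 17, with *Washc2* at 1.32, *Pstpip1* at 1.24 and *Hcls1* at 1.13, and *Wasl*, encoding N-WASP, fell (−0.68, SE 0.237, adjusted p = 0.0320). The other actin-binding proteins had 28 higher and 7 lower of 48. *Zyx*, encoding zyxin, a partner of Ena/VASP proteins, had 581, 517 and 551 CPM in Ctrl and 1966, 1664 and 1992 CPM in LIP (1.77, SE 0.0953, adjusted p = 3.16e-07). Class I myosins were split here as well, *Myo1d* at 1.92 (SE 0.211, adjusted p = 3.16e-05) and *Myo1e* at −2.35 (SE 0.279, adjusted p = 5.44e-05). *Ablim1* and *Sptbn1* fell, with −2.03 and −1.29, while *Marcks* rose by 1.84.

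One Ctrl library stood apart in the members. In Ctrl replicate 2, long members such as *Myo1f* (−0.63 in log2(CPM + 1) against the mean of the other Ctrl libraries) and *Msn* (−0.55) were lower, and short ones such as *Arpc1a* (0.45) higher. Exceptions included *Arpc1b* (0.32) and *Arpc5l* (0.43), close in length to *Myo1f*, and *Myh9* (0.10), the longest member. *Wasf2* (0.087) and *Vim* (0.097), also long, were higher too, and *Was* (−0.20) and *Evl* (−0.17), both short, were lower. Over the 45 members the deviation of that library fell with gene length (Spearman correlation −0.57, and −0.38 over all 10440 genes). In the other Ctrl libraries this correlation was 0.40 and 0.57 over the members and 0.33 and 0.10 over all genes. Each of those deviations was taken from libraries that include Ctrl replicate 2. In LIP libraries the correlation over the members ranged from −0.16 to 0.18. The points share a library, and no p is given. The log2 fold change of LIP against Ctrl had a Spearman correlation of −0.003 with length over the members. Without Ctrl replicate 2, 39 members were called higher and 3 lower on the TMM scale.

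**Figure D5:**
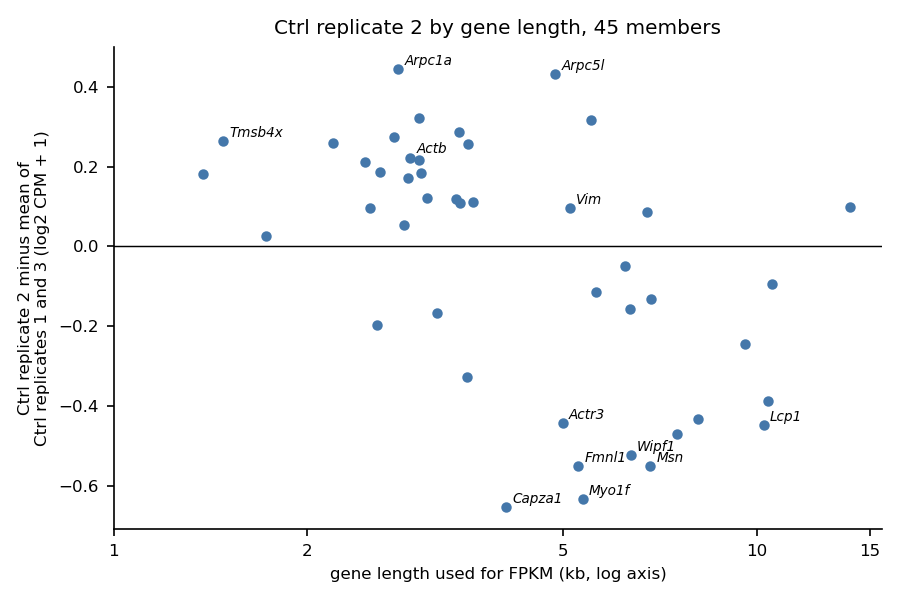
Deviation of Ctrl replicate 2 from the mean of the other Ctrl libraries, in log2(CPM + 1) (vertical axis), against gene length in kilobases (horizontal log axis); each point is 1 of the 45 members. Short members lie mostly above 0 and long members mostly below (Spearman correlation −0.57).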

How the data were processed

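Counts and FPKM per gene for 6 libraries were used as the authors deposited them. Per the labels, reads were processed with cutadapt 1.9 and FastQC on GRCm38; the aligner, counter and use of strand are not given in the sources used here. Genes with a mean deposited FPKM of at least 1 were tested (10440 of 29097) on counts with edgeR 4.0.16 (R 4.3.3), with TMM factors, the quasi-likelihood test, no covariate, and Benjamini-Hochberg adjustment over all of them at 0.05. TMM factors were 1.10 to 1.13 in Ctrl and 0.889 to 0.905 in LIP. Ratios within pairs used FPKM and a two-sided exact permutation test. Alternatives used limma 3.58.1 and DESeq2 1.42.0. Gene lengths are implied by counts and FPKM, and coding sequences were aligned with Biopython 1.88. The fit was tested on simulated data, where the share of false calls was above the nominal level. The members, pairs, pathway and marker lists were chosen with earlier results of these data known. By rule, the text gives in full the members with the 5 highest mean FPKM, the 5 largest rises and falls, both genes of each pair whose ratio did not overlap between groups, and up to 3 genes per direction and pathway list. Libraries are pools of 5 mice, so p-values measure the spread between pools. Counting error is small at 52186555 to 57262379 counts, but reads without molecular identifiers are not independent molecules. Replicates differed by more than sampling noise (chi-square per gene 51.9 to 126). For 13 members, part of the gene is shared with another tested gene. Genes named only because they overlap a member were chosen after their values were seen. One of the pathway lists is counted in the totals but not reported here by itself.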

Additional observations from a re-analysis of the deposited data

How the results depend on the processing

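The member counts held in direction under every alternative except scaling on the 17 mature neutrophil markers, and 30 of 45 members kept both call and direction in all 15 other settings. Members called higher numbered 38 with TMM, 34 by library totals, 39 by DESeq2 and also by its median-of-ratios factors within edgeR, 31 with limma on log2(FPKM + 1) and 27 on log2(FPKM + 0.1), and between 37 and 39 when 1 library was left out, with 3 to 4 called lower. Leaving out 1 library gave 2419 to 2615 genes higher and 2255 to 2770 lower over all genes, 57 to 62 pathway genes higher and 7 to 11 lower, and 12 to 13 pairs without overlap. With 1 added to each FPKM, 11 pairs were without overlap. Scaling on mature neutrophil markers gave 0 members and 0 pathway genes higher (0 at an unadjusted p under 0.05 for both, edgeR), 44 members and 90 pathway genes lower, and 56 genes higher and 9294 lower over all genes. Under a filter of 5 FPKM fewer genes were tested (5328), and 1768 of them were higher (33.2%) and 1869 lower (35.1%). The shares of the main fit were 26.5% and 27.2%. With limma on log2(FPKM + 1), 4271 genes were lower (40.9%). Pathway genes lower numbered 21 with library totals, 6 without the filter and 16 with limma on log2(FPKM + 1), and 38 were higher with limma on log2(FPKM + 0.1); the cause was not tested. Both limma fits and library totals leave the haemoglobin share in the total.

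Of the 4 members without a call on the TMM scale 3 changed sign: *Wasf2* (−0.19 with library totals, −0.036 with the stricter filter, −0.17 and −0.18 with limma at pseudocounts 1 and 0.1), *Myo1g* (−0.23, −0.073, −0.19 and −0.20 in the same order, and −0.027 without Ctrl replicate 2, the lowest of the values with 1 library left out, which reached 0.19 without LIP replicate 2) and *Ezr* (−0.055 with library totals, −0.032 and −0.032 with limma). On the neutrophil scale 41 members changed sign, with log2 fold changes of −0.95 for *Actb*, −0.60 for *Actg1*, −0.74 for *Arpc1a*, −0.77 for *Arpc1b*, −0.88 for *Arpc2*, −0.97 for *Arpc3*, −1.08 for *Arpc4*, −0.92 for *Arpc5*, −1.17 for *Actr2*, −1.10 for *Actr3*, −1.26 for *Was*, −1.70 for *Wasf2*, −0.90 for *Wipf1*, −0.82 for *Diaph1*, −0.56 for *Fmnl1*, −0.74 for *Vasp*, −1.10 for *Pfn1*, −0.88 for *Tmsb4x*, −0.72 for *Capza1*, −1.12 for *Capza2*, −0.98 for *Capzb*, −1.14 for *Cfl1*, −1.10 for *Wdr1*, −1.27 for *Coro1a*, −0.86 for *Coro1b*, −0.76 for *Coro1c*, −0.52 for *Gsn*, −0.27 for *Lcp1*, −0.81 for *Cotl1*, −1.17 for *Myh9*, −0.89 for *Myl6*, −1.37 for *Myl12a*, −0.98 for *Myl12b*, −0.25 for *Myo1f*, −1.73 for *Myo1g*, −1.11 for *Myo9b*, −1.56 for *Ezr*, −1.02 for *Msn*, −0.88 for *Tln1*, −1.18 for *Fermt3*, −1.06 for *Vim*. *Capg* (−2.11), *Evl* (−3.42), *Arpc5l* (−3.04) and *Tmsb10* (−2.90) were lower on that scale too. All these values differ from those on the TMM scale by a nearly constant amount and are not a separate result.

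Replicate numbers did not pair the libraries (correlations of deviations 0.0212, 0.0562 and 0.0364). With the replicate block, 39 members were higher and 3 lower, the added call being *Ezr* (0.28, adjusted p = 0.0461, edgeR). *Capg* was called lower without Ctrl replicate 1 (adjusted p = 0.0491), with library totals, with the stricter filter and in both limma fits. Calls of *Was*, *Myh9*, *Myl12a* and *Myo9b* were lost with library totals and in both limma fits, those of *Capza2*, *Coro1a* and *Fermt3* in both limma fits, and those of *Actr2*, *Actr3*, *Wdr1* and *Msn* with limma on log2(FPKM + 0.1). The effects of depth, of the number of pools and of reads shared between genes were not tested.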
